A study of Mus musculus with 15 samples.

Results

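The 47 genes described here encode the bone morphogenetic protein (BMP) and transforming growth factor beta (TGF-beta) pathway: 19 ligands, 11 receptors, 4 secreted antagonists, 12 intracellular effectors (Smad and Id proteins) and the protease Bmp1. They were taken by name from the 21,887 protein-coding genes of the RefSeq gene table of GRCm38, and their CpG positions are the 1347 of 455,836 measured CpG positions that lie inside a gene or within 2 kb of it. Every gene had at least 1 such position, and no position belonged to more than 1 of them. The assay was reduced representation bisulfite sequencing (RRBS), which reads short CpG-rich fragments after a treatment that converts unmethylated cytosines, in micro-dissected dentate gyrus of 15 female C57BL/6JRj mice aged 7.5 months. The 3 groups of 5 mice were kept in standard housing for 6 months (standard), in environmental enrichment for 6 months (enriched), or in enrichment for 3 months and then standard housing for 3 months (withdrawal). The labels name 1 strain, sex and age for all mice and give no batch, litter or cage. The p-values below measure the spread between mice and take the mice as independent, which could not be checked. The comparisons ask how methylation differed after enrichment and after enrichment had ended.

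BMP, growth differentiation factor (GDF), activin and TGF-beta ligands bind paired type I and type II serine/threonine kinase receptors, which phosphorylate Smad proteins that then enter the nucleus with Smad4. Smad1, Smad5 and Smad9 mainly carry BMP signals, Smad2 and Smad3 mainly carry TGF-beta and activin signals, and Smad6 and Smad7 inhibit the pathway. Id1 to Id4 are targets of BMP signalling that block basic helix-loop-helix transcription factors. In the adult dentate gyrus, BMP signalling through Bmpr1a holds neural stem cells in quiescence, and noggin opposes it. CpG-rich regions at gene starts are usually unmethylated, whatever the expression of the gene.

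Of the 47 genes, 32 had at least 1 start in the RefSeq promoter table (GRCm38.p6), which holds 250 bases before to 50 bases after each start. These genes had 37 such windows, with a median of 27 CpGs per window against 13 in the 21,238 windows of protein-coding genes. RRBS covered 12 windows of 11 genes with 72 positions, of which 69 averaged under 20%. Genes with no entry were Bmp1, Bmp2, Bmp3, Bmp7, Acvrl1, Tgfb3, Tgfbr3, Gdf5, Gdf6, Smad2, Smad4, Smad7, Nog, Fst and Id1. 3 windows are shown because the results return to them: Bmp4, whose start region was partly methylated, an inner start of Bmpr1b, which holds the position with the smallest p for withdrawal against standard, and Smad1, the window with the most measured positions. Each is written 5′ to 3′ on the strand of the gene, with the measured CpGs in capitals.
Bmp4, minus strand, chr14:46390620-46390919: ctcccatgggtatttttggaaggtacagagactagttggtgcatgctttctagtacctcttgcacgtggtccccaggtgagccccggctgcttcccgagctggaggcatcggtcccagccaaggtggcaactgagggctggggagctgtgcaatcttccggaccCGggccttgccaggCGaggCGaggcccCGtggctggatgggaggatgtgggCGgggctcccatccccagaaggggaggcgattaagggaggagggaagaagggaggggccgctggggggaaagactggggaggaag
Bmpr1b inner start, minus strand, chr3:141931371-141931670: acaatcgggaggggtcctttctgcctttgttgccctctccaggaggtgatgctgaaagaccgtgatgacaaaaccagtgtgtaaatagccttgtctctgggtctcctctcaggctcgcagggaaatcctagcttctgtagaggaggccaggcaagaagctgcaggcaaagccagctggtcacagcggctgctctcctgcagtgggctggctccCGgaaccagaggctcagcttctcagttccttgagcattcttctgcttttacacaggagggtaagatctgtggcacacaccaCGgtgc
Smad1, minus strand, chr8:79399379-79399678: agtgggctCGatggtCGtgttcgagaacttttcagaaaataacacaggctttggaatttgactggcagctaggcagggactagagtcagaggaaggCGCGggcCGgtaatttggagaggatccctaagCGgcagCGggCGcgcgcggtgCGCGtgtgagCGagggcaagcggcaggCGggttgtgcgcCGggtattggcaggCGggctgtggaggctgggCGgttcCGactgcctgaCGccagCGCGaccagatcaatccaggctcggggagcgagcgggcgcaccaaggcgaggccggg

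In the Bmp4 window all 5 measured positions had a value in every mouse. Their means were 12.5%, 5.81%, 22.0%, 41.3% and 14.6% at 35, 59, 67, 72 and 86 bases before the start, so neighbouring CpGs differed several-fold. The Smad1 window was almost free of methylation: its 20 positions averaged 0% to 4.90%, although most had values in only 9 to 12 mice. The 2 positions at the inner start of Bmpr1b averaged 6.54% and 4.08%. The hexamer GGCGCC, a GC-rich sequence bound by BMP-activated Smads, occurred in 12 of the 37 windows (32.4%) and in 15.3% of all windows of protein-coding genes. The tetramer CCGG, the recognition sequence of the enzyme commonly used for RRBS, occurred in 34 of 37 (91.9%) and in 62.2% of all. Both motifs read the same on either strand and may share bases, and a match is a description of the letters only.

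Methylation over the pathway genes was low. Of the 1347 positions, 1041 (77.3%) averaged under 20%, 128 (9.50%) lay between 20% and 80%, and 178 (13.2%) lay above 80%. The same shares were 66.1%, 14.4% and 19.5% over all protein-coding genes with their flanks. The antagonists (Nog, Chrd, Grem1 and Fst) had 92.2% of 90 positions under 20% and the Id genes 94.2% of 86, with a mean of 3.39% over the Id positions. The receptors were less uniform, with 68.2% of 340 positions under 20%, 19.4% above 80% and a mean of 26.5%. Bmp1, a metalloprotease that processes procollagen and cleaves the BMP antagonist chordin, stood apart with 14 of its 16 positions above 80% and a mean of 83.5%.

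The level followed the distance from the gene start, taken here and in all tests as the outermost 5′ end of the gene in the RefSeq gene table. Positions at an inner start of the promoter table therefore count as distant. Within 250 bases of the start the member positions averaged 2.45%, and all genes averaged 3.61%. Between 1000 and 2000 bases the members averaged 4.71% against 14.7% for all genes, and between 2000 and 5000 bases 8.04% against 22.7%. Beyond 20,000 bases the order turned, with 62.3% in the members and 55.2% in all genes. These are descriptions of positions that share genes and libraries, and no test was made of them.

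**Figure D1:**
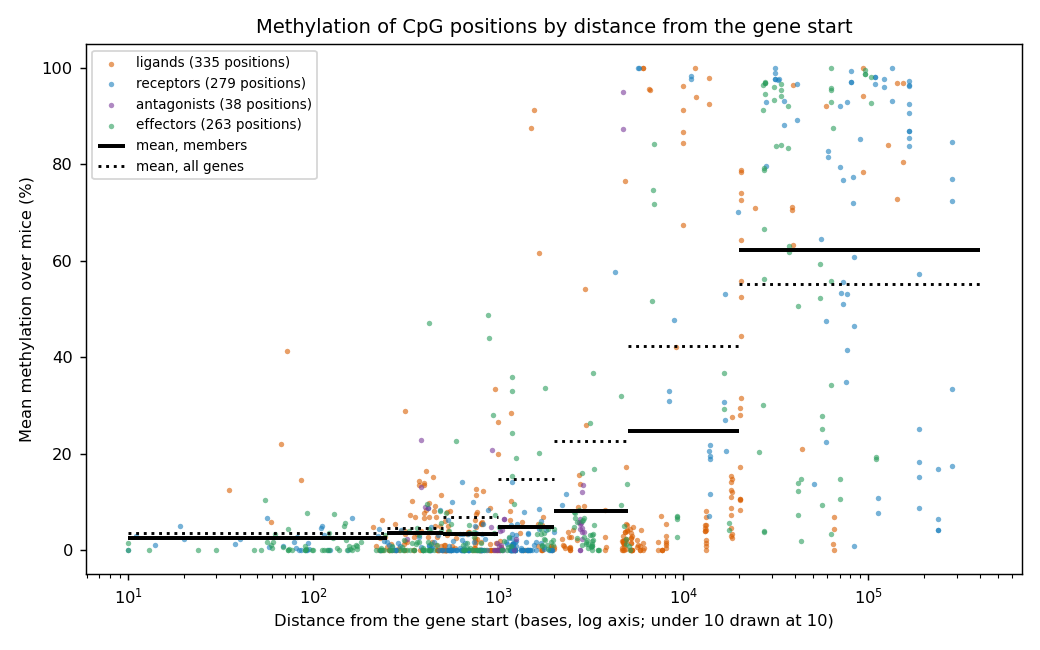
Mean methylation (%) of each CpG position of the 32 genes with a known start, against its distance from that outermost start in bases on a log axis, coloured by role. Solid bars are the members' means per distance bin and dotted bars those of all genes. The members' mean lies below that of all genes up to 20,000 bases and above it beyond 20,000 bases.

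Comparisons between groups used the positions with a value in all 15 mice. There were 261 of them, in 36 genes, and 200 lay inside a gene. The deposited values are percentages without read counts, so the depth behind them is unknown. The share of the 1347 positions that had a value, a partial view of depth, was 50.6% in standard mouse 1 and 73.9% to 98.2% in the others. Bmp2, Bmp5, Bmp8a, Bmp8b, Gdf5, Gdf11, Acvr1, Tgfbr1, Smad9, Fst and Id1 had no position with a value in all mice. Acvrl1, Tgfbr2, Inha, Gdf7 and Chrd had 1 or 2. The remaining 31 genes had at least 3 and received a gene value, the mean over those positions. Means over the gene and its flanks weigh the covered positions only, and whether a position lies in an exon or intron was not used here. The tissue is a mixture, so a change in the makeup of cells and a change of methylation within cells cannot be told apart. The tissue label could not be checked from methylation at the starts of marker genes. The start of Prox1, a transcription factor of dentate granule neurons, had 0.444% to 4.35% over the 15 mice. Ranges at the starts of other neuronal markers overlapped it. They were 0% to 6.995% for the pyramidal neuron markers Wfs1 and Fibcd1 and 3.15% to 11.9% for the interneuron markers Gad1 and Gad2. The starts of the astrocyte markers Aldh1l1 and Slc1a3 were higher, with means of 10.1% to 25.8%. Over whole genes Prox1 and Dsp, the 2 of 5 granule neuron markers with a value, averaged 46.8% to 54.6%. Ranges over whole genes were 23.5% to 27.5% for pyramidal neuron markers and 7.30% to 13.8% for interneuron markers. They were 10.8% to 32.2% for astrocyte markers and 23.7% to 44.5% for oligodendrocyte markers. The microglial gene P2ry12 had 55.2% to 77.3% and the endothelial gene Pecam1 0% to 19.2%.

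Mice of a group differed least where methylation was low. At member positions averaging under 20% the median within-group SD was 3.47 points, against 4.94 points over all positions of that level. It was 19.0 points (17.5 over all) at intermediate positions and 6.65 points (7.38 over all) above 80%. There were 35 positions at 0% in all 15 mice and 1 at 100% in all. In 121 places both strands of 1 CpG were measured, and the strand means differed by a median of 1.18 points and by less than 10 points in 116. The widest strand difference was 50.9 points, in Bmp7.

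Gene values ran from 0.545% (Inhbb, an activin subunit) to 89.4% (Acvr2b, an activin type II receptor), and levels differed far more between genes than between housing groups. Among the BMP and GDF ligands, Gdf6 averaged 1.78%, Bmp4 9.36%, Bmp7 57.2% and Bmp6 87.9%. Among the TGF-beta and activin ligands Inhbb was lowest and Tgfb3 highest, at 82.2%. The receptors spanned Acvr2a at 1.99% to Acvr2b at 89.4%, with Bmpr2, the gene with the most positions, at 15.02% over 21 of them. Noggin (Nog) averaged 2.16% and Grem1 30.8%, and over all measured positions 1.89% and 11.3%. The Grem1 value joins positions at 0% to 2.26% with positions at 87.4% and 95.1%. Likewise the Bmpr2 value joins positions at 0% to 9.89% with positions at 97.0% to 99.4%. Among the Smad genes with a gene value Smad7 was lowest at 8.21% and Smad5 highest at 40.3%, and the Id genes ran from 1.32% (Id4) to 7.31% (Id2). The Smad5 value rested on 3 positions before the gene, and all 12 of its measured positions averaged 18.3%. The highest values rested on few positions: 3 in Bmp6, 4 in Tgfb3 and 5 in Acvr2b. With positions measured in at least 4 mice of every group they were 49.6%, 56.9% and 74.2%. Over all measured positions these genes averaged 22.8%, 58.2% and 29.5%. Which positions were covered differed between genes. Those behind the Acvr2b value lay 27,857 to 41,362 bases after the start, and those behind the Acvr2a value 1098 to 1653 bases after it.

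**Figure D2:**
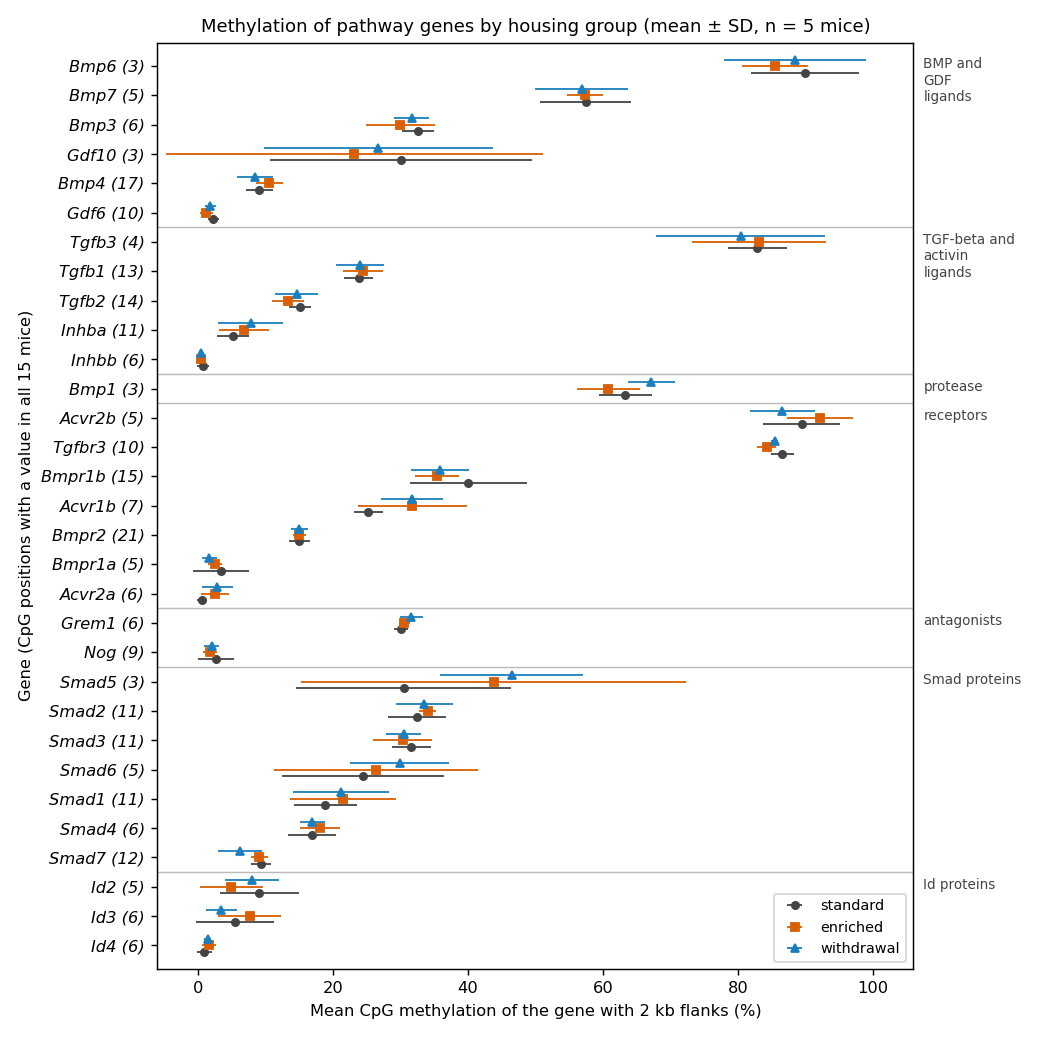
Mean CpG methylation (%) of the 31 genes with at least 3 positions measured in all mice, by role. Symbols are group means and bars the SD of 5 mice, with the number of positions in parentheses. Genes range from 0.545% to 89.4%, and the 3 groups of a gene lie close together beside that range.

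No gene of the pathway passed the test in any comparison. By limma with adjustment over all 8349 genes tested, 0 of the 31 genes were called at an adjusted p under 0.05 for enriched against standard, where 0.012% of all genes were called. The count was also 0 in both comparisons of the withdrawal mice, where 0.0% of all genes were called. At an unadjusted limma p under 0.05 there were 0, 0 and 1 of the 31, beside 6.04%, 5.34% and 4.84% of all genes. Differences had both signs, with 16 genes higher and 15 lower in enriched than in standard mice. The median difference was 0.0389 points (enriched minus standard), -0.530 points (withdrawal minus standard) and 0.110 points (withdrawal minus enriched), and over all genes 0.0554, 0.293 and 0.211 points. These comparisons share mice: the standard mice enter the first 2 and the withdrawal mice the last 2. In no comparison did any of the 31 genes separate the groups completely, which 0.719%, 0.85% and 0.767% of all genes did.

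Means over the roles lay within the spread of mice. The 11 ligand genes averaged 31.8% ± 2.06 (SD, n = 5) in standard mice, 30.6% ± 3.60 with enrichment and 31.0% ± 1.59 after withdrawal. The 7 receptor genes averaged 37.2% ± 1.70, 37.7% ± 1.78 and 37.0% ± 0.577. The 2 measured antagonists averaged 16.4% ± 1.24, 16.2% ± 0.656 and 16.8% ± 1.37. The 10 effectors averaged 18.0% ± 1.49, 19.8% ± 4.30 and 19.8% ± 1.805, and the enriched mice alone covered 13.5% to 24.3%. Each gene counted equally in these means, and Smad5 rested on 3 positions before the gene. Smad5 exceeded standard by 13.3 points in enriched and 16.0 points in withdrawal mice, the widest differences of the 10. Its enriched mice ran from 12.6% to 78.8%. The median difference over the 10 effectors was 1.37 points (enriched minus standard) and 0.317 points (withdrawal minus standard). A minimum of 5 positions per gene left out only Smad5 of these effectors. Their mean then exceeded standard by 0.505 points in enriched and 0.226 points in withdrawal mice. Among the 11 ligands, Gdf10, with 3 positions, had the widest differences from standard, -6.96 points in enriched and -3.44 points in withdrawal mice. Over all 499 measured ligand positions, many without a value in some mice, the means were 18.5%, 18.8% and 19.0%. Over all 8349 genes the means were 33.0%, 33.2% and 33.5%. The groups overlapped in each role.

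**Figure D3:**
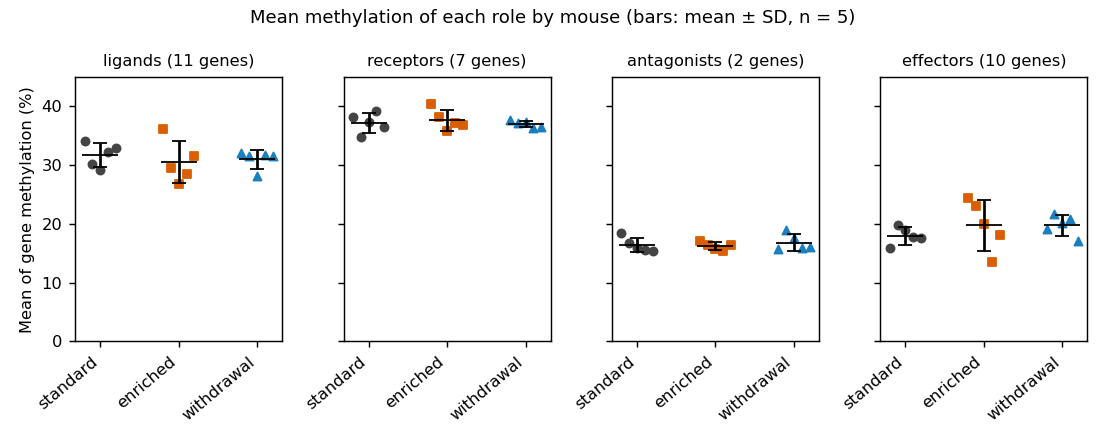
Mean of the gene values of each role in every mouse (%), with bars at the group mean ± SD of 5 mice. The 3 groups overlap in all 4 roles, and the effectors spread most in the enriched mice, from 13.5% to 24.3%.

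Among the ligands, 4 of 11 genes had a higher mean in enriched and 2 of 11 in withdrawal than in standard mice, none past the test, where 51.1% and 56.2% of all genes were higher. The counts were 7 and 6 of 10 effectors, 4 and 3 of 7 receptors, and 1 and 1 of 2 antagonists. All these counts rest on the same 5 standard mice. Bmp4, a BMP ligand, is the best covered ligand, with 17 positions. Its gene value was 12.4%, 8.78%, 9.19%, 7.01% and 8.20% in the standard mice, 13.0%, 12.4%, 8.45%, 9.23% and 9.90% in the enriched mice, and 6.92%, 5.31%, 8.08%, 9.26% and 12.4% in the withdrawal mice. The groups overlapped throughout, and the difference of withdrawal minus enriched was -2.19 points (limma adjusted p = 0.995). The Bmp4 start region, the 5 capital CpGs above, averaged 18.5% ± 3.73 (SD, n = 5) in standard mice, 20.9% ± 1.23 with enrichment and 18.3% ± 4.25 after withdrawal. The enriched mice lay close together at 19.8% to 22.9%, inside the range of the other groups. Within the gene, the plus-strand position chr14:46385848 was at 28.6%, 9.09%, 0%, 0% and 16.3% in the standard mice, at 0% in all 5 enriched mice, and at 1.64% in 1 and 0% in 4 withdrawal mice. Methylation there was seen in 3 standard mice and 1 other mouse, and the log2 ratio differed by -1.43 ± 0.50 (SE) in enriched and -1.35 ± 0.50 in withdrawal from standard (limma adjusted p = 0.876 and 0.961).

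Bmp3 encodes a ligand that opposes other BMPs. At chr5:98879826, inside the gene, the standard mice had 93.0% in 1 and 100% in 4 mice, the enriched mice had 100%, 44.4%, 84.8%, 73.8% and 75.0%, and the withdrawal mice had 100%, 78.0%, 100%, 93.5% and 87.3%. The difference of enriched minus standard was -23.0 points (log2 ratio difference -2.32 ± 0.74, limma adjusted p = 0.817), and 4 of the 5 enriched mice lay below every standard mouse. Gdf6 had a gene value of 2.25% ± 0.793 in standard and 1.25% ± 0.980 in enriched mice (limma adjusted p = 0.862). Tgfb2, a TGF-beta ligand, had a 1 kb window at chr1:186703001-186704000 with 0%, 1.75%, 2.78%, 0% and 4.28% in the standard mice and 0% in all 10 others. Its difference of -1.76 points from standard was the same in enriched and withdrawal mice (limma adjusted p = 0.809 and 0.995).

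For Bmp1, withdrawal against enriched gave the smallest p of the 31 gene values. Its gene value was 66.4%, 53.7%, 62.9%, 60.2% and 60.9% in the enriched mice and 66.7%, 73.1%, 65.6%, 64.0% and 66.7% in the withdrawal mice. Withdrawal was 6.40 points higher (log2 ratio difference 0.36 ± 0.14, limma adjusted p = 0.995), and only enriched mouse 1 reached into the range of the withdrawal mice. Of the 3 positions behind it, chr14:70505353 on the minus strand showed the widest gap. There the standard mice had 100%, 100%, 81.5%, 63.6% and 94.3%, the enriched mice 76.0%, 61.1%, 94.4%, 79.2% and 82.8%, and the withdrawal mice 100%, 100%, 98.5%, 92.1% and 100%. The lowest withdrawal mouse was at 92.1%, while the standard mice covered nearly the whole range of both other groups (19.4 points against enriched, limma adjusted p = 0.976).

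Among the receptors, Bmpr1b, a BMP type I receptor whose gene spans chr3:141837135-142169585, held 2 positions at which most standard mice were highest. At the inner start printed above, 45 bases after its first base, chr3:141931375 had 14.1%, 6.90%, 1.43%, 40.4% and 20.8% in the standard mice. The enriched mice had 0%, 0%, 8.82%, 2.48% and 0%, and the withdrawal mice 0%, 1.69%, 0%, 0% and 1.53%. The lowest standard mouse overlapped both other groups, and 3 of the 5 standard mice lay above all other mice. The difference from standard was -14.4 points in enriched (log2 ratio -1.64 ± 0.54, limma adjusted p = 0.842) and -16.1 points in withdrawal mice (-1.92 ± 0.54, limma adjusted p = 0.886), both against the same standard mice. The 1 kb window around it, chr3:141931001-141932000, averaged 17.5% ± 14.8 (SD, n = 5) in standard mice, 6.40% ± 4.64 after enrichment and 3.54% ± 2.61 after withdrawal. Of the standard mice, 2 stood high in that window, at 39.7% and 25.7%.

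A position deeper in Bmpr1b differed in the same direction at a higher level. At chr3:141886885, 282,700 bases after the start of the longest model, the standard mice had 91.8%, 75.9%, 90.4%, 100% and 88.9%, the enriched mice 59.2%, 58.8%, 72.6%, 72.0% and 80.4%, and the withdrawal mice 79.1%, 66.5%, 69.9%, 79.5% and 69.8%. All but 1 of the standard mice lay above every other mouse. The difference from standard was -20.8 points in enriched (limma adjusted p = 0.819) and -16.4 points in withdrawal mice (limma adjusted p = 0.961). Over its 15 positions with a value in all mice Bmpr1b averaged 40.1% ± 8.69, 35.4% ± 3.25 and 35.8% ± 4.31, with standard mouse 4 highest at 54.3%. Over all 67 measured positions, many without a value in some mice, the Bmpr1b means were 35.0%, 35.0% and 35.7%. Near the outermost start, 3 positions averaged 4.42% ± 7.80, 4.40% ± 3.28 and 1.78% ± 1.78, where the standard value came mostly from 18.0% in standard mouse 1.

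Acvr1b, an activin type I receptor, had gene values of 29.0%, 24.0%, 24.7%, 24.8% and 23.7% in standard mice, 43.7%, 33.2%, 22.2%, 33.0% and 26.8% in enriched mice, and 35.2%, 36.6%, 32.7%, 27.5% and 26.4% in withdrawal mice. The standard mice lay close together, and both other groups reached higher while overlapping them. Differences from standard were 6.55 and 6.45 points (limma adjusted p = 0.828 and 0.968). Its position chr15:101190937 was the only 1 of 199 tested member positions at which groups did not overlap, and was named after its values were seen. It had 18.8%, 40.6%, 40.7%, 43.1% and 54.5% in standard and 64.4%, 67.2%, 61.7%, 63.8% and 55.8% in withdrawal mice (limma adjusted p = 0.961). Of all tested positions, 0.458%, 0.532% and 0.51% separated enriched from standard, withdrawal from standard and withdrawal from enriched mice. Tgfbr3, the co-receptor betaglycan, had the only such window of 42, also named after its values were seen. That window, chr5:107255001-107256000, averaged 99.2% ± 0.322 (SD, n = 5) in the standard and 98.0% ± 0.396 in withdrawal mice, a difference of -1.18 points (limma adjusted p = 0.995), and 0.689%, 0.804% and 0.651% of all windows separated the groups in the 3 comparisons. No gene start of the pathway did so, where 0.488%, 0.618% and 0.943% of all starts did.

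The other receptors named by their p-values gave small or scattered differences. Acvr2a, an activin type II receptor, averaged 0.550% ± 0.755 (SD, n = 5) in the standard group and 2.57% ± 2.09 and 2.86% ± 2.33 after enrichment and withdrawal (limma adjusted p against standard 0.835 and 0.947). Each of its groups held at least 1 mouse at 0%. Over the gene, Tgfbr3 averaged 86.6% ± 1.74, 84.3% ± 1.44 and 85.5% ± 0.531. Acvr2b averaged 89.5% ± 5.68, 92.2% ± 4.85 and 86.6% ± 4.83, a difference of -5.58 points for withdrawal minus enriched (limma adjusted p = 0.995). The start of Bmpr2, the BMP type II receptor, was at 0% in all 5 withdrawal mice, 11.9% in standard mouse 1 and 9.09% in enriched mouse 5, and at 3.10% or less in the others.

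Of the antagonists, Nog averaged 2.70% ± 2.70 (SD, n = 5), 1.76% ± 0.995 and 2.03% ± 1.11 in standard, enriched and withdrawal mice over 9 positions, with 7.51% in standard mouse 1. All 9 lay in the flanks and none inside the gene. Grem1, which encodes gremlin, averaged 30.2% ± 1.04, 30.6% ± 0.874 and 31.6% ± 1.70. Its window chr2:113757001-113758000 was at 0% in 4 standard mice, all 5 enriched mice and 3 withdrawal mice, and reached 5.43% in withdrawal mouse 2.

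Among the effectors, Smad7, an inhibitory Smad, gave the smallest p for enriched against standard. At chr18:75367919, inside the gene, the standard mice had 16.7%, 12.5%, 4.55%, 18.6% and 9.57%, the enriched mice 1.37%, 6.45%, 0.676%, 0% and 0%, and the withdrawal mice 7.02%, 3.38%, 0.524%, 6.44% and 3.80%. All but 1 of the standard mice lay above every other mouse, and enriched and withdrawal mice overlapped. The difference from standard was -10.7 points in enriched mice (log2 ratio difference -1.54 ± 0.42, limma adjusted p = 0.683) and -8.15 points in withdrawal mice (-1.02 ± 0.42, limma adjusted p = 0.961). Its window, chr18:75367001-75368000, averaged 4.50% ± 2.49, 0.876% ± 1.02 and 1.59% ± 1.11 (SD, n = 5). The next window, chr18:75368001-75369000, averaged 2.01% ± 0.989, 1.36% ± 1.36 and 0.933% ± 0.796. The gene value of Smad7, over 11 positions inside the gene and 1 in the flank, was 9.33% ± 1.53, 9.10% ± 1.24 and 6.21% ± 3.28. The low withdrawal mean held 0.665% in withdrawal mouse 3, which also read 0% at the flanking position chr18:75365705, where the other 14 mice read 63.6% to 100%. Withdrawal minus enriched at that position was -33.4 points (limma adjusted p = 0.976).

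Id3, a BMP target, had 1 position read as methylated in 3 of 5 enriched mice and in no standard mouse. At chr4:136144311, 489 bases after the start, all 5 standard mice had 0%, the enriched mice had 29.0%, 0%, 18.0%, 0% and 30.3%, and the withdrawal mice had 7.69% in 1 and 0% in 4. The enriched mean exceeded standard by 15.5 points (log2 ratio difference 1.8 ± 0.60, limma adjusted p = 0.862). Withdrawal minus enriched was -13.9 points (limma adjusted p = 0.976), and 2 enriched mice read as the standard mice did. The Id3 start region, which includes this position, averaged 0%, 3.09% ± 2.98 and 1.07% ± 1.67 (SD, n = 5) in standard, enriched and withdrawal mice. At chr12:25094392 inside Id2, 1700 bases after the start, the means were 2.85% ± 2.11, 1.09% ± 2.43 and 6.11% ± 4.53 (withdrawal against enriched, limma adjusted p = 0.976). Over the gene, Id2 averaged 9.06% ± 5.84, 4.93% ± 4.65 and 7.94% ± 4.0, with overlapping groups.

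At chr9:63959476 inside Smad6, the inhibitory Smad of the BMP branch, all standard and enriched mice had 0% and the withdrawal mice had 18.2%, 0%, 28.3%, 0% and 2.94%. Methylation was thus read in 3 of 5 withdrawal mice and in no other (9.88 points, limma adjusted p = 0.961 against standard and 0.976 against enriched). The start of Smad3 was at 0% in 2 standard mice and at 2.13%, 11.5% and 2.35% in the other 3. It was at 0% in all enriched mice and in all but 1 of the withdrawal mice, which had 1.93% (enriched minus standard -3.20 points, limma adjusted p = 0.862). Smad1 averaged 0.663% ± 0.992 (SD, n = 5), 0% and 1.19% ± 1.5 at its start in standard, enriched and withdrawal mice. Smad5 had the widest group difference of any gene value, 30.5% ± 15.9, 43.9% ± 28.5 and 46.5% ± 10.6. Its enriched mice ran from 12.6% to 78.8%, and the difference of 16.0 points between withdrawal and standard had a limma adjusted p of 0.974. The 3 positions behind the value all lay before the gene start and none inside the gene. Over all 12 measured positions, many without a value in some mice, the Smad5 means were 15.7%, 16.8% and 22.6%.

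**Figure D4:**
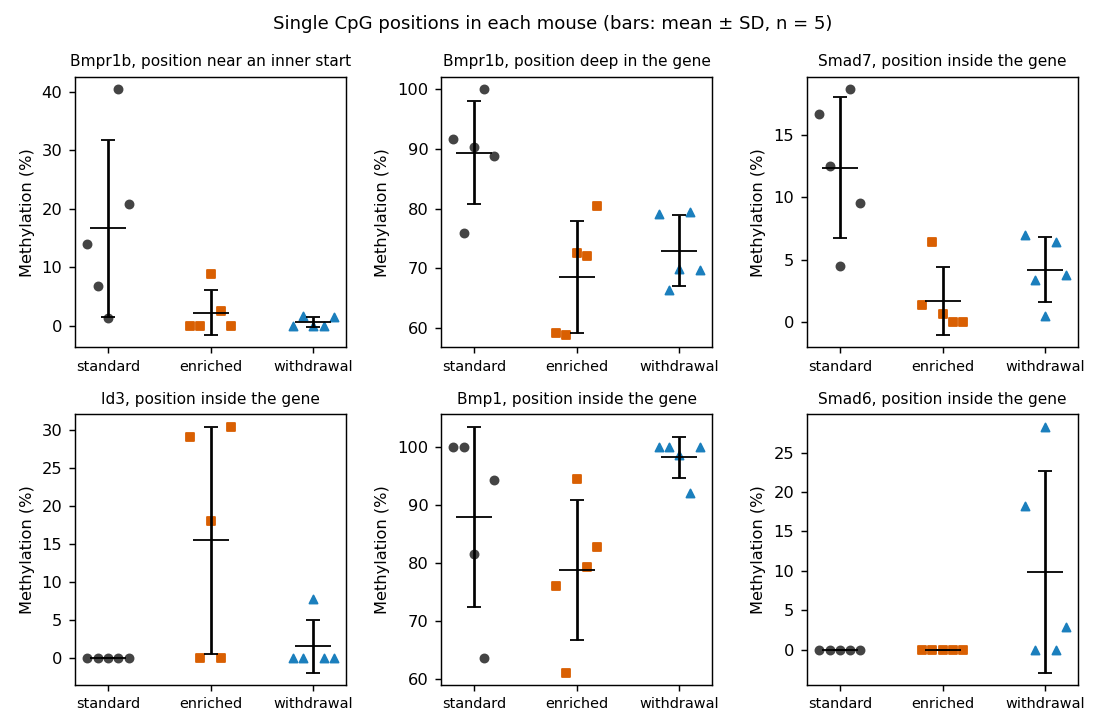
Methylation (%) of 6 single CpG positions in each of the 15 mice, with bars at the group mean ± SD of 5 mice. Vertical axes differ between panels, and the Bmpr1b and Bmp1 panels with high values do not start at 0. The standard mean is the highest of the 3 at both Bmpr1b positions and in Smad7, with overlapping mice, 3 enriched mice stand out in Id3 and 3 withdrawal mice in Smad6.

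Over all single positions the members followed the table. None of the 199 tested positions was called by limma in any comparison, where 0.0% of the 100,562 tested positions were. At an unadjusted limma p under 0.05 there were 11 positions in the comparison of enriched with standard mice, 8 in that of withdrawal with standard and 6 in that of withdrawal with enriched. These are shares of 5.53%, 4.02% and 3.02%, beside 5.15%, 4.42% and 4.3% of all tested positions. Differences were under 10 points at 84.9%, 82.4% and 87.4% of the member positions and at 82.9%, 84.8% and 85.2% of all. Of 42 windows none was called (0.0% of all 15,677 were), with 4, 3 and 0 at an unadjusted limma p under 0.05, where 5.71%, 4.8% and 4.39% of all windows were. Of 9 gene starts none was called (0.0% of all 3075 were), with 2, 0 and 0 at an unadjusted limma p under 0.05, where 5.14%, 5.01% and 5.07% of all starts were.

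**Figure D5:**
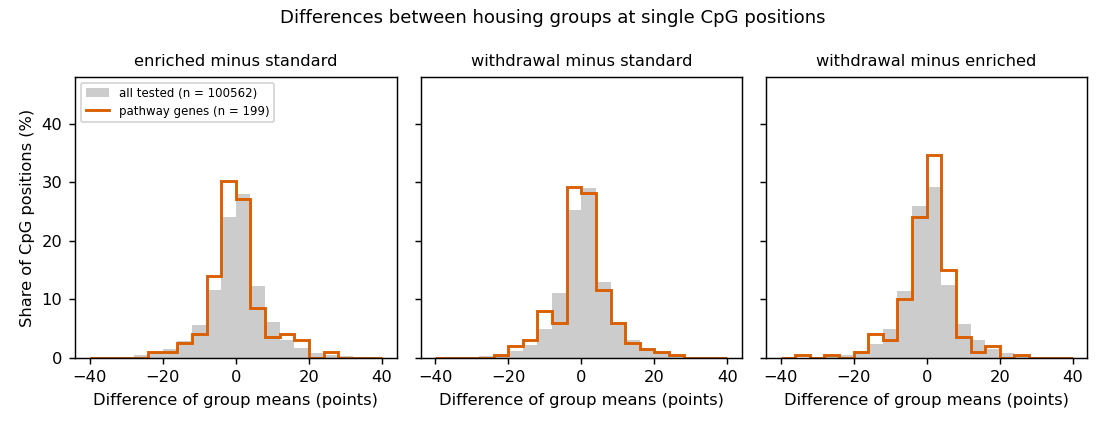
Share of CpG positions (%) by the difference of group means in percentage points, in bins of 4 points, for the 3 comparisons. Grey areas are all 100,562 tested positions and lines the 199 of the pathway genes. Both centre near 0, and 82.4% to 87.4% of the member positions lie within 10 points.

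Other genes of the pathway were not called either. Of 54 further genes, among them extracellular regulators, latent TGF-beta binding proteins, ubiquitin ligases and Smad partners, 24 had a gene value and none was called by limma. At an unadjusted limma p under 0.05 there were 1, 2 and 2 of the 24, beside the 6.04%, 5.34% and 4.84% of all genes. Of the 24, 1 separated enriched from standard mice (0.719% of all genes did) and 1 separated withdrawal from enriched mice (0.767% did). The first was Ltbp1, a latent TGF-beta binding protein named after its values were seen, at 38.5% to 40.3% in standard and 36.1% to 38.1% in enriched mice (limma adjusted p = 0.862), and the second was Nodal. Nodal, an activin-like ligand of the early embryo, was at 0% in all enriched mice. All standard mice but mouse 2, at 5.42%, were also at 0%. The Nodal mean was 1.08% ± 2.42 (SD, n = 5) in the standard group and 3.01% ± 1.66 in the withdrawal group (withdrawal against enriched, limma adjusted p = 0.853). Dand5, a Nodal antagonist, averaged 26.2% ± 10.8 in standard and 38.1% ± 6.04 in enriched mice (limma adjusted p = 0.825). Tgif2, a repressor of Smad-driven transcription, averaged 15.8% ± 4.84 and 24.0% ± 9.82 (limma adjusted p = 0.828). Thbs1, which encodes the TGF-beta activator thrombospondin-1, averaged 38.1% ± 1.44 in standard and 42.0% ± 2.63 in withdrawal mice (limma adjusted p = 0.932). Rgmb, a BMP co-receptor, averaged 2.91% ± 1.78 with enrichment and 0.983% ± 0.779 after withdrawal (limma adjusted p = 0.995).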

How the data were processed

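The values the authors deposited are percent methylation of single cytosines on either strand in 15 mice, without read counts. The submitters' processing notes name Trim Galore 0.4.0, cutadapt 1.8.1, Bismark 0.16.1, methylKit 1.5.2 and mm10, without their order or settings. A coverage minimum is not given in the sources used here. The table runs through the chromosomes and then starts again. The first run (455,836 positions) was taken as CpG: in RefSeq promoter windows 47,278 of 47,278 of its positions were a C followed by a G, which also checks the build. The second run (2,462,278 positions) was not used.

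Gene positions came from RefSeq for GRCm38.p6, with strand known for 17,492 of 21,887 protein-coding genes, and no exon annotation was used. Positions with a value in all mice, outside chromosome Y and the mitochondrial genome, numbered 113,832. Those with a range of at least 5 points (100,562) were tested singly. Means over at least 3 such positions, without the range filter, were tested for 1 kb windows, genes with 2 kb on either side, and gene starts within 1 kb. Percentages became log2((percent + 5)/(100 - percent + 5)), and limma 3.58.1 in R 4.3.3 fitted 3 group means to all mice with a variance trend. Tests were two-sided, with Benjamini-Hochberg adjustment over all features of a kind, and were tested on simulated data. Means over roles got no test.

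The members and gene lists were chosen with earlier results of these data known. Named features were those with the smallest p per comparison (6 genes, 4 starts, 5 positions and 4 windows), the highest and lowest genes of each role, the best covered gene of each role, and Bmp1. Of the other pathway genes, the 2 with the smallest p per comparison were named. Alternatives changed the offset, scale, variance trend, range filter, positions used, minimum number of positions, distances, summary over positions and weighting, added the replicate number as a block, and left out each mouse in turn.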

Additional observations from a re-analysis of the deposited data

Results flagged for a closer look

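The highest or lowest mouse of a group was set against the others of its group, and named when its gap to the nearest was over 0.71 of the range of the 5 mice (Dixon's 95% value). Of 141 groups tested 20 were named, where chance gives about 1 in 20. Several share positions, and groups with 4 mice at exactly 0% or 100% are named for any other value.

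Standard mouse 1, which had values at 50.6% of the member positions, the fewest of all mice, was named 6 times. It had 29.0% over Acvr1b (next 24.8%), 83.6% over Tgfbr3 (next 86.8%), 7.51% over Nog (next 1.84%), 18.0% at the start of Bmpr1b (next 4.07%), 11.9% at the start of Bmpr2 (next 0.617%), and 93.0% at the Bmp3 position against 100% in the other 4. The part of its coverage in these values was not tested.

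Standard mouse 4 had 11.5% at the Smad3 start and in the window that holds the same positions, and withdrawal mouse 5 had 1.93% there against 0% in the other 4. In the Grem1 window standard mouse 2 had 1.96% and withdrawal mouse 2 had 5.43%. Withdrawal mouse 2 was also high over Id2, at 14.8%. Withdrawal mouse 3 had the lowest ligand mean of its group, 28.2%, and 7.69% at the Id3 position. Enriched mouse 3 had 5.43% at the Id2 position and 8.82% at the Bmpr1b inner start, and enriched mouse 2 had 6.45% at the Smad7 position. Withdrawal mouse 1 had 1.64% at the Bmp4 position and withdrawal mouse 4 had 92.1% at the Bmp1 position.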

How the results depend on the processing

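No alternative called a member position, window, gene or start in any comparison, and the lowest limma adjusted p of a member over all of them was 0.359. Over the whole table the alternatives called 0 to 11 positions, 0 or 1 windows, 0 to 3 genes and 0 or 1 starts per comparison. At an unadjusted limma p under 0.05 there were 8 to 15, 7 to 13 and 5 to 10 of the 199 member positions in the 3 comparisons, over the alternatives that tested the same 199. With positions measured in at least 4 mice per group, 20, 18 and 14 of 499 passed (4.01%, 3.61% and 2.81%), beside 4.85%, 4.41% and 4.27% of all positions.

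Differences between role means depended on single mice and on the positions used. A minimum of 5 positions per gene left out only Smad5 among the effectors. The effector differences from standard were then 0.505 points in enriched and 0.226 points in withdrawal mice. Leaving out other genes 1 at a time was not tried. With 1 mouse left out, 7 of the 12 differences turned direction for at least 1 mouse. Enriched minus standard ran from 0.645 points (without enriched mouse 1) to 3.36 points (without enriched mouse 4) for the effectors, from -2.62 (without enriched mouse 1) to -0.284 points (without enriched mouse 3) for the ligands, from -0.203 (without enriched mouse 1) to 1.01 points for the receptors, and from -0.499 to 0.251 points (without standard mouse 1) for the antagonists. Where a value in at least 4 mice per group sufficed, the receptor difference from standard became 1.98 points in enriched and 2.21 points in withdrawal mice, and the antagonist difference 1.00 point for enriched minus standard and -0.985 points for withdrawal minus enriched. With genes of at least 1 position, the receptors gave 2.61 and 2.19 points against standard, and the antagonists gave 2.17, 4.38 and 2.21 points for the 3 comparisons. Single genes turned direction in 7 cases, each far from the threshold. With at least 4 mice per group, withdrawal minus standard over Acvr2a became -0.0160 points, and withdrawal minus enriched became 1.30 points over Acvr2b, 1.43 points at the Bmpr1b start and -0.0494 points in the Grem1 window. With the median over positions, Smad7 became 0.308 points for withdrawal minus standard and 0.378 points for withdrawal minus enriched. Within 2 kb of its start, Bmpr2 became 0.206 points for withdrawal minus standard. The cause was not tested. Of 84 gene levels recomputed under another choice of positions, 25 moved by more than the SD over mice.

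Same-numbered mice did not deviate together (r from -0.0177 to 0.0193 over 15 pairs, 0 of them over 0.1, and 3 of 15 mice correlated best with their own number). Mice of different groups and numbers gave r from -0.0227 to 0.0266. With r this near 0 for all pairs, the check cannot show whether the numbers pair mice. With the replicate block, limma called 0 member features in every comparison and 0 features of the whole table, except 1 gene start for withdrawal against enriched. A coverage minimum could not be tried, and positions measured in few mice were not compared.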
